A study of Homo sapiens with 17 samples.

Results

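Parental HCT116 cells were compared with DGCR8ΔCTT cells of the same line (dCTT below) by small RNA sequencing, with 1 library of each. All 294 microRNA hairpins of the table deposited for these cells were taken, of 1282 hairpins listed anywhere in the series. They carried 247 names once copies of a hairpin that differ only by a trailing number were joined. HCT116 is an established human colon carcinoma line, and the parental cells are labelled wild type. In the dCTT cells the CTT domain of DGCR8 was removed with CRISPR-Cas9, which the labels call a functional knockout. The labels do not say whether the edited line is a single clone. The other 15 libraries of the series are dCTT cells given mock, wild-type (WT), C352A or P351A DGCR8, or P351A DGCR8 with ALA, an agent the labels do not spell out, in 3 libraries each. Mock and WT are used below as a separate measurement. The DGCR8 edit itself lies in a messenger RNA and cannot be read from small RNA libraries.

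Most microRNAs are made from long primary transcripts. In the nucleus, the Microprocessor complex, made of the nuclease DROSHA and its RNA-binding partner DGCR8, cuts a hairpin out of the transcript, and DICER then trims the hairpin to a mature microRNA. The C-terminal tail of DGCR8 (CTT) is the part that holds DROSHA. A few microRNAs are known to reach DICER by other routes: mirtrons, which are short introns released by the spliceosome, and hairpins whose end is set by the start of transcription, such as mir-320a and mir-484.

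The mature sequences that carry the comparison are given from RefSeq (GRCh38.p14), 5′ to 3′, with the seed, bases 2 to 8 that pair with targets, in capitals. The first 4 belong to hairpins that were not 2-fold lower in dCTT cells, and the others to hairpins that were at least 4-fold lower.
hsa-miR-320b: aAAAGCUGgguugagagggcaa
hsa-miR-484: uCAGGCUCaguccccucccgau
hsa-miR-877-5p: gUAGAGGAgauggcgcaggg
hsa-miR-7706: uGAAGCGCcugugcucugccgaga
hsa-miR-21-5p: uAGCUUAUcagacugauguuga
hsa-miR-191-5p: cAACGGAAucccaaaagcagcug
hsa-let-7a-5p: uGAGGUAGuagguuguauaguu
hsa-miR-375-3p: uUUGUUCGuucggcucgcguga
hsa-miR-100-5p: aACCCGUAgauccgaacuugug
hsa-miR-99a-5p: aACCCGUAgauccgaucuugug
hsa-miR-99b-5p: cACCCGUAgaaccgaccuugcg

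Reads summed to 5122793 over the listed hairpins in the parental library and to 168798 in the dCTT library. The table lists only hairpins that reached 50.7 in the higher library, as read from its values, so no count below covers hairpins that were low in both. Values are reads per hairpin on the authors' scale, called scaled reads, and are not divided by length. On that scale the dCTT value is the read count itself, and 1 parental read is worth 0.642. The scale holds the mir-320 copies nearly level: the 5 listed copies sum to 92141 scaled reads in parental and 93109 in dCTT cells. The parental total was 19.5 times the dCTT total. Ratios are log2 of (parental + 1) over (dCTT + 1), so a positive value means a lower level in dCTT cells. With 1 library a group there is no replicate check and no test, and every interval on a ratio is an exact 95% interval that covers counting error only. Colon epithelial markers were present: all 5 members of the miR-200 family and all 5 of mir-192, mir-194-1, mir-194-2, mir-215 and mir-375 were listed. Of 23 hairpins known from other cell types 6 were listed, namely mir-143, mir-145, mir-126 and the 3 mir-9 copies, while liver mir-122, blood mir-223, mir-142 and mir-451a and the muscle hairpins were not among the listed ones. These 6 summed to 13706 scaled reads in parental and 345 in dCTT cells. The 3 mir-9 copies hold nearly the same reads, about 3282 in parental and 49 in dCTT cells each, so that sum counts 1 signal 3 times. In the same order, the miR-200 family summed to 28968 and 463, and the 5 gut hairpins to 3750 and 42.

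Loss of mature microRNA was broad in dCTT cells. Of 294 hairpins, 257 were at least 4-fold lower (87.4%), and 66 were at least 64-fold lower (22.4%). Another 22 lay within 2-fold (7.48%), 12 were between 2-fold and 4-fold lower, and 3 were over 2-fold higher in dCTT cells (1.02%). The median ratio was 5.54, or 46.5-fold, the middle 50% of hairpins ran from 4.69 to 5.94, and 187 hairpins (63.6%) lay between 5 and 6.5. The counting interval lay wholly above 0 for 272 hairpins, wholly below 0 for 11 and spanned 0 for 11. In a bulk library, less microRNA in every cell and fewer cells that hold it cannot be told apart.

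The size of these ratios depends on the scale, and their order hardly does. With both libraries scaled to equal totals, all ratios shifted by a median of -4.22, mir-21 stood at 1.44 and mir-320a at -4.28. When the medians of both libraries were set equal, the shift was -4.41. On the authors' scale 276 hairpins were higher in parental and 18 in dCTT cells. At equal totals that split was 242 and 52, and with equal medians it was 232 and 62. Statements below that a hairpin kept its level therefore mean that it kept level with the mir-320 copies.

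**Figure D1:**
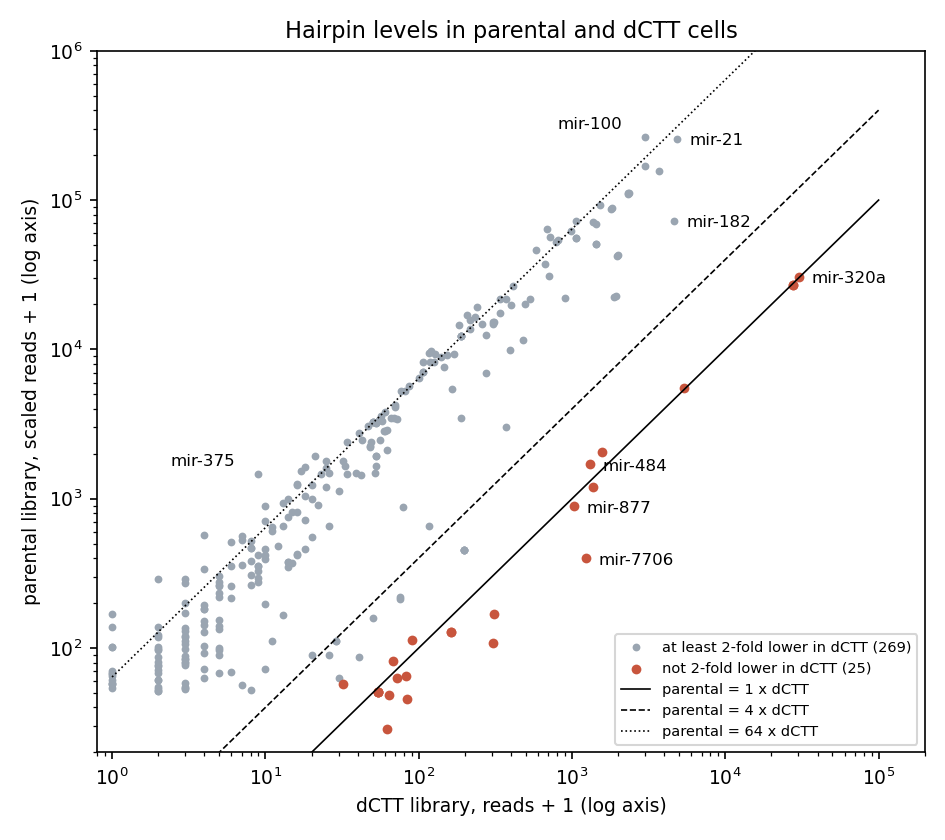
Scaled reads of each of the 294 hairpins in the dCTT library (x axis) and the parental library (y axis), both plus 1 on log axes, with lines for equal, 4-fold and 64-fold levels. The 269 with a loss of 2-fold or more (grey) lie mostly in a band at or just under the 64-fold line, and the 25 that were not (red) lie along the line of equal level.

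The composition of the pool changed with it. In parental cells the most abundant hairpin was mir-100, with 264252 scaled reads, followed by mir-21 with 256959, mir-191 with 169422 and mir-222 with 156800. mir-21 is a widely studied oncogenic microRNA, and mir-100 is known to repress mTOR. In dCTT cells these 4 held 2983, 4876, 2993 and 3720 reads, a ratio of 6.47 for mir-100, 5.72 for mir-21, 5.82 for mir-191 and 5.40 for mir-222. They still ranked 9, 5, 8 and 7 there. Ranks 1 to 4 went to mir-320a with 30425 reads, the mir-320b copies mir-320b-1 and mir-320b-2 with 27854 each, and mir-320c-1 with 5398.

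By share of reads, the 5 mir-320 copies held 2.80% of the parental library (95% exact interval 2.79% to 2.82%) and 55.2% of the dCTT library (54.9% to 55.4%). The 2 mir-320b copies hold the same reads, so the share counts those reads more than once. The share of mir-100 was 8.04% in parental and 1.77% in dCTT cells, and that of mir-21 was 7.82% and 2.89%. All 25 hairpins that were not 2-fold lower held 2.97% of parental reads and 59.1% of dCTT reads. Of the top 20 hairpins of each library 11 were shared. Over all 294, Spearman's rho between the levels in the 2 libraries was 0.80, a value across hairpins of 1 pair of libraries with no test.

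The 25 hairpins (8.5%) that were not 2-fold lower carried 19 names. Among those with the most reads, mir-320a held 30548 scaled reads in parental and 30425 in dCTT cells, a ratio of 0.01 (-0.01 to 0.03). The mir-320b copies held 26988 and 27854, a ratio of -0.05 (-0.07 to -0.02). Of the mir-320c copies, mir-320c-1 held 5549 and 5398 and mir-320c-2 held 2069 and 1578. The ratio of mir-320c-2 was 0.39 (0.30 to 0.48), so the copies were not level with each other beyond counting error. The rule that assigned reads to copies is not given. The start-site microRNA mir-484 held 1695 scaled reads in parental and 1302 in dCTT cells, a ratio of 0.38 (0.28 to 0.48). The mirtron mir-877 held 889 and 1037, a ratio of -0.22 (-0.34 to -0.10), and the mirtron mir-1226 held 62 and 71, a ratio of -0.20 (-0.66 to 0.26). Of the 10 mirtrons looked for, these were the 2 that were listed.

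On the authors' scale, 3 hairpins stood over 2-fold higher in dCTT cells. They were mir-7706 with 397 scaled reads in parental and 1235 in dCTT cells (ratio -1.63, interval -1.78 to -1.50), mir-4286 with 106.5 and 306 (-1.51, -1.80 to -1.25) and mir-6886 with 27.6 and 61 (-1.12, -1.74 to -0.56). All 3 intervals lay below 0. mir-7706 was 3.10-fold higher in dCTT cells and moved from rank 168 to rank 27. It was followed by mir-4741 with 44.9 and 83 (-0.87) and mir-3605 with 169 and 309 (-0.87). The 2 mir-4435 copies share the same reads, with 127 in parental and 162 in dCTT cells (-0.35). mir-3615 held 1198 and 1380 (-0.20, -0.31 to -0.10).

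The other members held few reads, and their intervals spanned 0 or came near it. They were mir-636 with 47.5 scaled reads in parental and 63 in dCTT cells, mir-1260b with 64.2 and 82, the 4 mir-6511a copies with the same 50 and 53, mir-4745 with 80.9 and 67, and mir-937 with 112 and 90. The last was mir-5094 with 56.5 and 31, a ratio of 0.84 or 1.80-fold (1.20 to 2.84), which makes it the only 1 of the 25 whose interval reaches past a 2-fold loss. Just beyond the 2-fold line stood mir-6850 at 1.08 and mir-1275 at 1.10. The group from 2-fold to 4-fold lower also held the 4 mir-6724 copies at 1.19 each, mir-1254-1 at 1.52, mir-4521 at 1.66, mir-7641-2 at 1.78 and the mir-3648 copies at 1.94. Of these, mir-6724, mir-3648 and mir-7641-2 lie in sequence related to ribosomal RNA. The chosen list of hairpins from other RNA classes (snoRNA, rRNA) had 7 listed members with 3 names. All 7 were under 4-fold lower, while 87.4% of all 294 hairpins were at least 4-fold lower.

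**Figure D2:**
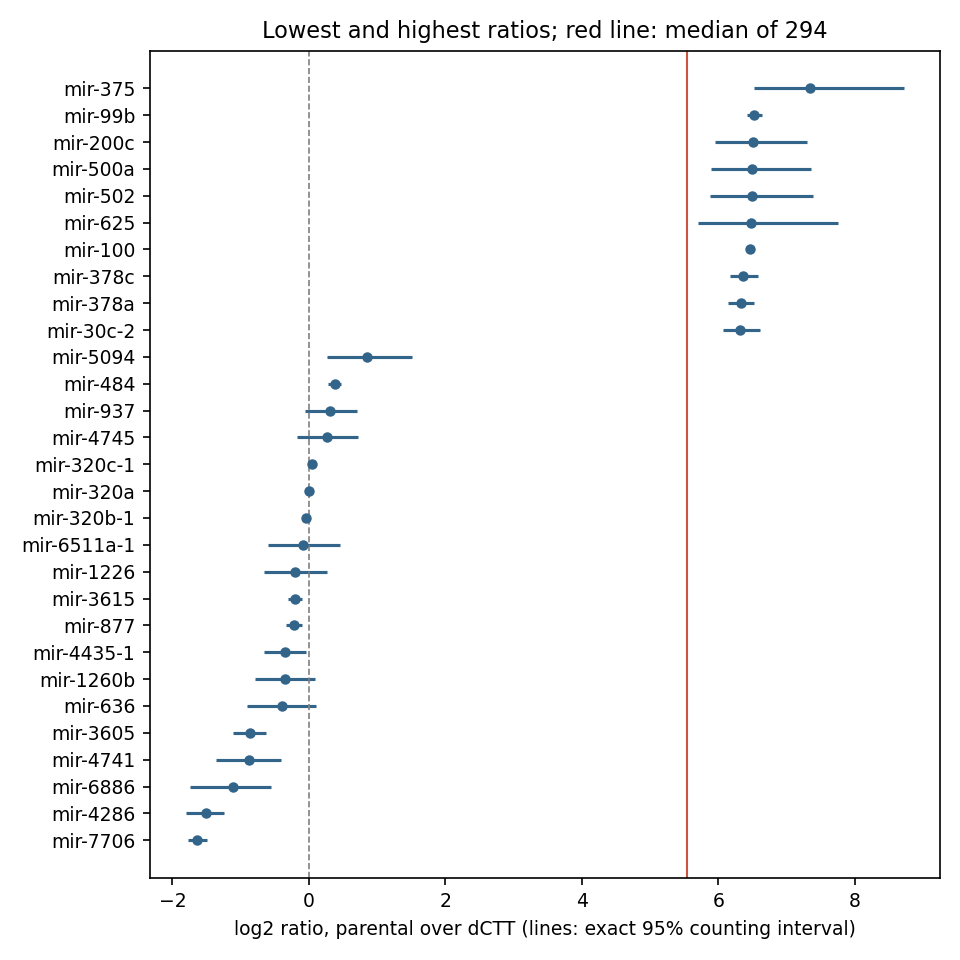
Log2 ratio of parental over dCTT cells (points) with exact 95% counting intervals (lines) for the hairpins with the lowest and the highest ratios. The red line is the median of all 294 hairpins, 5.54. mir-7706 has the lowest ratio at -1.63, and mir-375 the highest of those drawn at 7.34 with the widest interval of the deep losses.

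Where the kept hairpins lie in the genome was read from RefSeq and GENCODE release 29, both on GRCh38. A RefSeq hairpin was found for 241 of the 294, including 21 of the 25 kept ones, and position is a description here, with distances chosen after the values were seen. Hairpins that end exactly on a splice site of an intron shorter than 200 bases numbered 8, with 5 names, and all 8 were among those not 2-fold lower. The exact rule leaves out mir-3614 and mir-4707, named after their values were seen. They begin 1 base before a 54-base TRIM25 intron and a 67-base HAUS4 intron. Both were lower, at 2.85 on 9 dCTT reads and 4.73 on 1 dCTT read. Of the 8, 3 are printed in full to show how the hairpin meets the intron ends, with the mature arms in capitals.
mir-877: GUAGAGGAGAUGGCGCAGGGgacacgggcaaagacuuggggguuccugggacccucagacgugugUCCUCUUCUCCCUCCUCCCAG
mir-1226: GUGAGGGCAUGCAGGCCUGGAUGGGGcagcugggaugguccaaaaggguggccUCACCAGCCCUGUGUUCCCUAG
mir-6511a-1: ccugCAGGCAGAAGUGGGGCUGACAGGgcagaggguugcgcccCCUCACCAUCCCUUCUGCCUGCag

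The first of these, mir-877 (chr6:30584332-30584417, plus strand), is an 86-base intron of ABCF1 from its first base to its last. The second, mir-1226 (chr3:47849555-47849629, plus strand), is a 75-base intron of DHX30 in the same way. They were the only 2 of 241 hairpins that begin with GU and end with AG, the letters at the ends of most introns. The third, mir-6511a-1 (chr16:14925937-14926003, plus strand), begins 60 bases into a 127-base intron and ends on its last base, and mir-6511a-2, mir-6511a-3 and mir-6511a-4 do the same in their own introns. Among the others, mir-4745 begins on the first base of a 73-base PTBP1 intron. The 4 mir-6511a copies share their reads and are 1 signal.

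A start or splice site was close to 13 of the 21 kept hairpins with a position. Within 15 bases of a splice site, 9 of 14 hairpins were not 2-fold lower, against 12 of the other 227. Within 50 bases of an annotated transcript start, 5 of 12 were not 2-fold lower, against 16 of the other 229. The 5 were mir-7706, which begins 9 bases after a start of AKAP13, mir-484, 27 bases after one of NDE1, mir-4741, 34 bases after one of RBBP8, mir-4745, 22 bases after one of PTBP1, and mir-3615, 39 bases before one of SLC9A3R1. The 7 start-site neighbours that were lower included mir-330 at 5.95, mir-1247 at 5.51 on 2 dCTT reads, and mir-2110 at 3.33. Whether nearness to a start goes with a kept level was not tested. Of the 8 kept hairpins with neither site nearby, 4 were mir-320b and mir-320c copies. The position of mir-320a itself is not given here.

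At the other end, among the 147 hairpins at or above the median level of both libraries, the highest ratio was that of mir-375, an islet and gut microRNA, with 1456 scaled reads in parental cells and 8 in dCTT cells. Its ratio was 7.34 (6.53 to 8.72), or 162-fold. By ratio, the next of the 147 were mir-99b with 64036 and 691 (6.53, 6.43 to 6.64), mir-200c with 1921 and 20 (6.52, 5.96 to 7.30), and mir-500a with 1622 and 17 (6.49, 5.89 to 7.36). mir-200c is known to hold cells in an epithelial state by repressing ZEB factors. With them stood mir-502 with 1529 and 16, mir-625 with 889 and 9, mir-100 at 6.47 (6.42 to 6.52) or 88.6-fold, mir-378c with 17054 and 206, mir-378a with 19287 and 239, and mir-30c-2 with 9390 and 116. Below the median level, where dCTT reads were fewest, some ratios were as high, such as mir-331 (named after its value was seen) at 7.18 (5.69 to 13.5) on 1 dCTT read.

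For 12 hairpins the whole counting interval lay beyond 64-fold, among them mir-100, mir-99b, mir-25, mir-200b, mir-30c-1, mir-378a and mir-375. A further 13 hairpins had 0 dCTT reads. Set against a floor of 3 reads, they were at least 17.5-fold to at least 56.3-fold lower, the last being mir-2277. Of the 66 hairpins past 64-fold by the ratio with 1 added, 8 had 0 reads. With those 13 at their bound, 58 hairpins were past 64-fold and the median of all was 5.44.

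Families were lost to different depths, and hairpins of 1 seed could lie close together or far apart. The 3 hairpins with the seed ACCCGUA, mir-100, mir-99a and mir-99b, had ratios from 6.47 to 6.58, the highest being mir-99a on 2 dCTT reads. Of the 6 hairpins in the mir-99/100 and mir-125 list, 5 were at least 64-fold lower, beside 22.4% of all 294, with a median of 6.31. The exception was mir-125a with 9982 scaled reads in parental and 391 in dCTT cells, a ratio of 4.67 (4.53 to 4.82). Of the 5, mir-125b-1 (5.86 to 6.17) and mir-125b-2 (5.98 to 6.36) had intervals that reach below 64-fold. The CLCN5-intron hairpins had a median of 6.20, and all 6 listed were past 64-fold, on 85 dCTT reads in all. The interval of mir-500a, given above, reaches below 64-fold. mir-500a with 17 dCTT reads and mir-502 with 16 held nearly the same values, so the 6 are not shown to be independent. One of the 6, mir-362, had 0 dCTT reads, for which only at least 22.03-fold can be said.

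The 6 hairpins of the miR-23/27/24 clusters were the most even larger group, from 5.84 to 6.05. They carry 5 names, since mir-24-1 and mir-24-2 are copies. mir-27a, with 52295 scaled reads in parental and 786 in dCTT cells, and mir-27b, with 54203 and 815, held nearly equal values. The 6 are therefore not shown to be independent. All 12 let-7 hairpins, tumour-suppressive microRNAs with the seed GAGGUAG, were at least 4-fold lower, beside 87.4% of all 294, from let-7c at 5.36 (5.24 to 5.49) to let-7d at 6.18 (5.99 to 6.38), intervals that do not meet. The miR-200 family ran from mir-200a at 5.61 to mir-200c at 6.52. The miR-17-92 and paralogue list, oncogenic clusters, had a median of 5.47 over 12 hairpins, from mir-20a at 4.97 to mir-25 at 6.28.

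**Figure D3:**
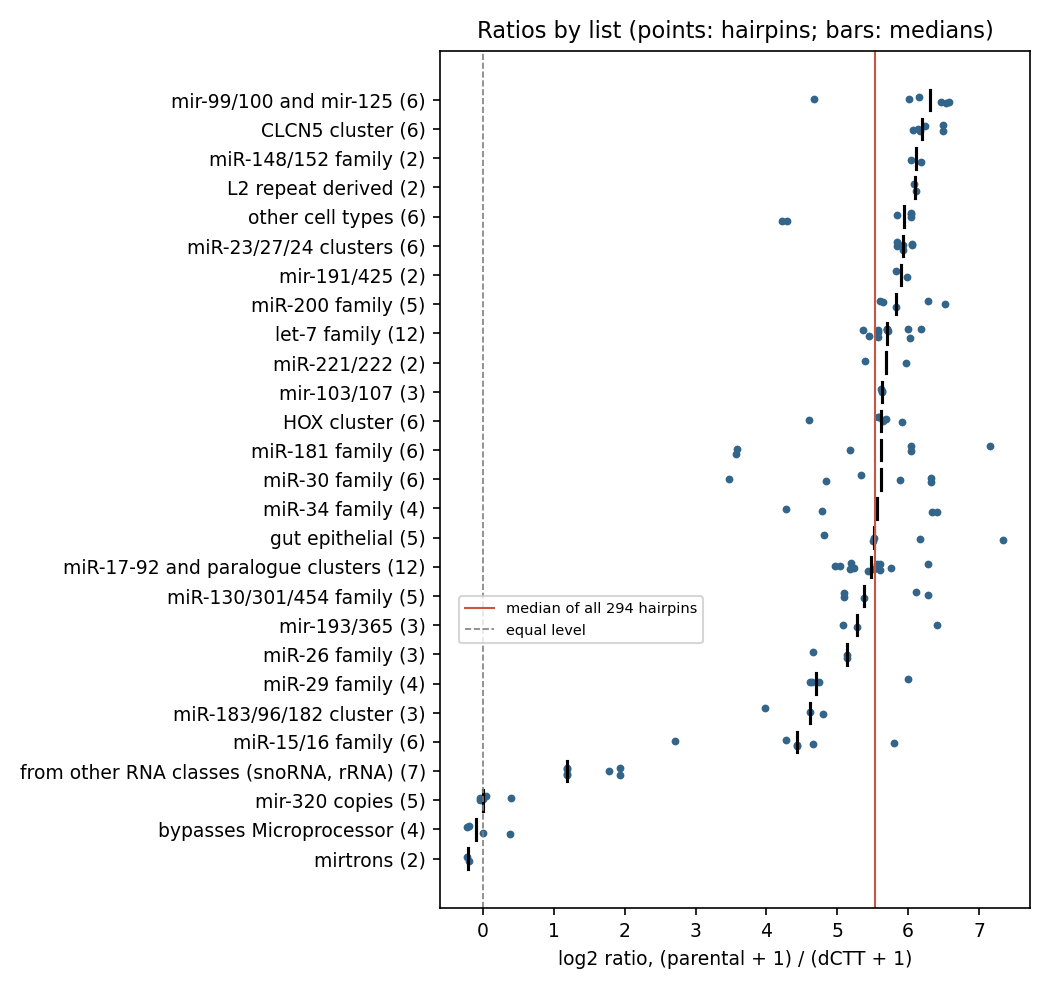
Log2 ratios of parental over dCTT cells for the members of each list (points) with the list median (black bar) and the number of listed members in brackets. The red line is the median of all 294 hairpins, 5.54. The mir-320 copies and the mirtrons lie at equal level, and the mir-99/100 and mir-125 list has the highest median, 6.31.

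Some lists lay to the left of that median. The miR-15/16 family, with the seed AGCAGCA and known to repress BCL2, had a median of 4.43, beside 5.54 for all 294, and none of its 6 members was past 64-fold, beside 22.4% of all 294. That median is set by the 2 mir-16 copies, which hold nearly the same reads (1958 and 1996 in dCTT cells) and are not independent. Of the other members, mir-195 had 2 dCTT reads and mir-424 had 7. Within the family, mir-16-1 held 42318 scaled reads in parental and 1958 in dCTT cells (4.43, 4.37 to 4.50), and mir-15b held 1787 and 31 (5.80, 5.34 to 6.41). The mir-96, mir-183 and mir-182 hairpins, which are neighbours, had a median of 4.62, and mir-182 held 72607 and 4616 (3.98, 3.93 to 4.02). That put mir-182 at rank 6 in dCTT cells and rank 11 in parental cells. The miR-29 family had a median of 4.70, with mir-29a at 5.99 and mir-29b-1 at 4.62.

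The miR-181 family, with a shared seed, had the widest range of the lists, 3.60, though its highest ratio rests on 3 dCTT reads. Its mature sequences are printed because their ratios differ although the seed, in capitals, is the same.
hsa-miR-181a-5p: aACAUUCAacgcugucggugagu
hsa-miR-181b-5p: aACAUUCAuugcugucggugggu
hsa-miR-181c-5p: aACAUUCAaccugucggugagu
hsa-miR-181d-5p: aACAUUCAuuguugucggugggu

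The 2 hairpins of miR-181a, mir-181a-1 with 22906 scaled reads in parental and 1934 in dCTT cells and mir-181a-2 with 22500 and 1876, had ratios of 3.57 (3.50 to 3.63) and 3.58 (3.52 to 3.65). Those of miR-181b, mir-181b-1 with 7061 and 106 and mir-181b-2 with 7048 and 106, both had a ratio of 6.04 (5.78 to 6.35 for mir-181b-1). mir-181c with 572 and 3 was at 7.16 (6.02 to 9.85), and mir-181d with 326 and 8 at 5.18 (4.36 to 6.57). Similarly, mir-30a was 11.1-fold lower and mir-30c-1 80.2-fold lower, within the miR-30 family. The range of that family was 2.86, with at least 51 dCTT reads in every member.

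Among 125 hairpins with at least 1000 scaled reads in parental cells and at least a 4-fold loss, 13 (11 names) had a ratio under 5, or 32-fold. They were mir-7974 at 3.02 (named after its value was seen, with 3031 scaled reads in parental and 372 in dCTT cells), both mir-181a copies, mir-182, mir-126 at 4.22, both mir-16 copies, mir-10b at 4.60, mir-183 at 4.62, mir-26b at 4.65, mir-125a, mir-30b at 4.84 and mir-20a. At the deep end 44 of the 125 were past 64-fold. The median of the 125 was 5.84. The ratio also moved with level. Its median was 4.61 in 60 hairpins below 100 scaled reads in parental cells, 5.33 in 102 from 100 to 1000, 5.87 in 75 from 1000 to 10000 and 5.70 in 57 above that. The 1 added to each value and the listing minimum weigh most on the lowest of these classes.

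Ratios of hairpins in 1 genomic cluster could differ. On the annotation, 81 hairpins fell into 33 clusters less than 10000 bases apart on 1 strand. The median range of ratios within a cluster was 0.65, and 13 clusters had a range under 0.5, among them the mir-941 copies at 0.017. Of those copies, mir-941-3, mir-941-4 and mir-941-5 hold the same reads, so they are not independent. The width of the middle 50% of all hairpins, 1.26, is another measure. It also covers the 25 hairpins that were not 2-fold lower, so the 2 values cannot be compared directly. In 9 clusters it was 1 or more, and 5 of these had a member with under 10 dCTT reads. Of the 20 clusters with at least 10 dCTT reads in every member, 4 had a range of 1 or more, and the median range was 0.62. The widest, 2.48, was that of mir-181a-1 and mir-181b-1, which lie within chr1:198858873-198859153 on the minus strand. The cluster of mir-99b, let-7e and mir-125a (chr19:51692612-51693339, plus strand) had ratios of 6.53, 6.03 and 4.67. In the cluster of mir-15b and mir-16-2 (chr3:160404588-160404825) the ratios were 5.80 and 4.43. The mature miR-16, miR-181a and miR-181b reads may also come from a second locus each, so the share of each locus is uncertain. Neither end of the 2.48 range can therefore be assigned to the chr1 locus alone.

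**Figure D4:**
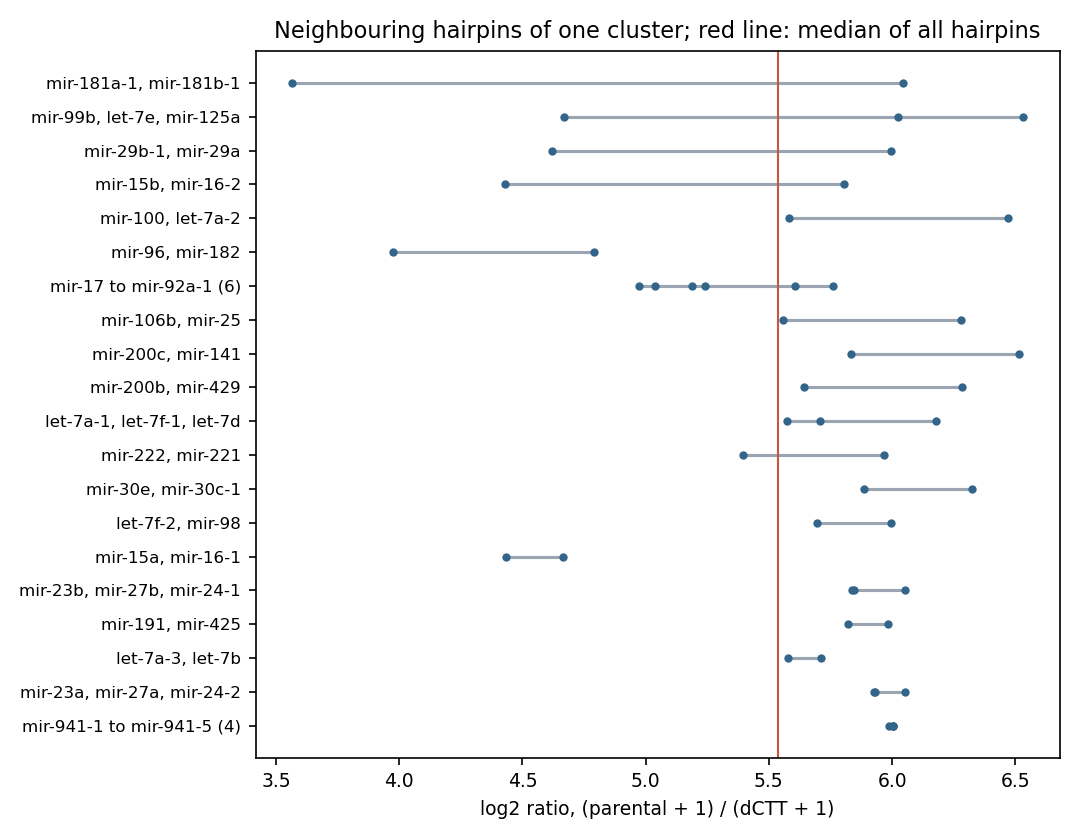
Log2 ratios of parental over dCTT cells for neighbouring hairpins (points) joined by a line per genomic cluster, for the 20 clusters with at least 10 dCTT reads in every member. The red line is the median of all 294 hairpins. The line of mir-181a-1 and mir-181b-1 is the longest, 2.48, and that of the mir-941 copies, some of which hold the same reads, the shortest.

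Features of the hairpin that the table does not use were compared next. The apical loop, the stretch between the mature arms, could be read for 174 hairpins with both arms in RefSeq. The letters UGU, looked for on the RNA strand only, occurred in the loop of 69, and 33.6% of 741 two-armed RefSeq hairpins hold them. Those with UGU had a median ratio of 5.61 and those without 5.56. Where the loss was 4-fold or more the medians were 5.61 and 5.58, and among those that also had at least 1000 scaled reads they were 5.81 and 5.84. By loop length the medians were 5.58 under 15 bases, 5.59 from 15 to 18 and 5.56 above. By position in a gene, 148 intronic hairpins had a median of 5.61, 59 exonic ones 5.19 and 34 with no host gene on their strand 5.33. These medians are descriptions of 1 pair of libraries, and no difference between the classes was tested.

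The rescue libraries measured the same hairpins in separate cells. Mock-rescued dCTT cells (3 libraries) were compared with dCTT cells given WT DGCR8 (3 libraries) by limma on log2(value + 1), with Benjamini-Hochberg adjustment over 336 hairpins. "Rose" and "fell" below mean higher or lower with WT DGCR8 at an adjusted p under 0.05. Of all tested hairpins 55.7% rose and 7.44% fell. Of the 294 hairpins here 260 were tested, and 176 rose and 10 fell. Depth was 146023 to 587214 reads in mock and 660126 to 1470755 in WT libraries.

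Calls were laid out by the loss in dCTT cells. Of 161 tested hairpins 4-fold to 64-fold lower, 130 rose and none fell, and of 62 at least 64-fold lower, 44 rose and none fell. Of the 25 not 2-fold lower, 2 rose, 2 fell and 21 had no call. Of the 12 from 2-fold to 4-fold lower none rose and 8 fell. Copies with the same or nearly the same dCTT reads are among the 12, namely those of mir-6724, mir-3648 and mir-1254. The 12 are therefore not independent signals. The median change was 1.66, 1.19, -0.11 and -1.16 on the log2 scale in these classes in turn. The counts depend on the scale: at equal totals 36 of 161, 11 of 62, none of 25 and none of 12 rose, while 16, 16, 20 and 12 fell. The order of the class medians, 0.24, -0.24, -1.53 and -2.60, was the same.

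mir-21 held 55688, 32230 and 27726 scaled reads in the mock libraries and 357939, 170815 and 164155 with WT DGCR8. Every WT library was above every mock library, and the change was 2.55 ± 0.28 (SE, limma adjusted p = 1.6e-06). mir-10a, a microRNA of the HOX clusters, held 5385, 4015 and 4346 in mock and 92125, 46442 and 59417 with WT DGCR8. It rose by 3.80 ± 0.24 (SE, limma adjusted p = 2.4e-09), again without overlap.

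A deep loss in dCTT cells did not always go with a call. mir-100 held 16110, 10032 and 10029 in mock and 40384, 13193 and 12866 with WT DGCR8. The ranges overlapped, and the change was 0.69 ± 0.37 (SE, limma adjusted p = 0.11). The call for mir-100 turned with the setting. At equal totals it was a fall past the threshold, -0.76 (limma adjusted p = 0.041), while with the replicate number as a block it was a rise past it (0.69, limma adjusted p = 0.036). Without the second or the third WT library it was 0.96 and 0.97, also rises past the threshold. Its seed partner mir-99b, in contrast, rose by 2.05 ± 0.36 (SE, limma adjusted p = 0.00014), though not past the threshold at equal totals (0.60). mir-375, with 16.1 to 47 scaled reads in mock and 37.9 to 88.1 with WT DGCR8, rose by 0.96 ± 0.40 (SE, limma adjusted p = 0.044). That call was lost without any 1 of 4 of the 6 libraries (0.55 to 1.03), and the direction turned at equal totals (-0.46).

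Neighbours that differed in dCTT cells both rose. mir-181a-1 changed by 1.52 ± 0.20 and mir-181b-1 by 1.81 ± 0.27 (SE, limma adjusted p = 7.8e-06 and 2.6e-05). Neither passed at equal totals (0.07 and 0.36).

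Hairpins with a kept level moved both ways on the authors' scale, where 2 rose and 2 fell. Other scalings shifted most of the 25 to falls: 20 fell and none rose at equal totals, 17 fell and 1 rose with equal medians, and 19 fell and none rose with edgeR on recovered reads. mir-877 held 2683, 4517 and 3484 scaled reads in mock and 1071, 1404 and 1578 with WT DGCR8. All WT libraries were below all mock libraries, and the change was -1.38 ± 0.41 (SE, limma adjusted p = 0.0068). mir-320c-2 fell by 0.91 ± 0.26 (SE, limma adjusted p = 0.0055). mir-3615 held 199, 122 and 526 in mock and 1757, 648 and 1056 with WT DGCR8, again without overlap. It rose by 2.18 ± 0.47 (SE, limma adjusted p = 0.00084), and at equal totals the change was 0.73 and not past the threshold.

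mir-484 rose by 1.37 ± 0.54 (SE, limma adjusted p = 0.036). The call was lost without mock library 1 (1.36), mock library 2 (1.21) or WT library 1 (0.89). At equal totals its change was -0.07. mir-7706, the hairpin with the lowest ratio, held 1392, 2022 and 2466 in mock and 1394, 1447 and 1480 with WT DGCR8, a change of -0.41 ± 0.26 (SE, limma adjusted p = 0.17). Without mock library 1 it was -0.63 and past the threshold, and it was past it at equal totals (-1.85). Among hairpins 2-fold to 4-fold lower in dCTT cells, mir-4521 fell by 2.30, mir-1275 by 1.65, mir-6724-1 by 1.19 and mir-1254-1 by 1.12. The call for mir-1254-1 was lost without mock library 2 (-0.96).

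**Figure D5:**
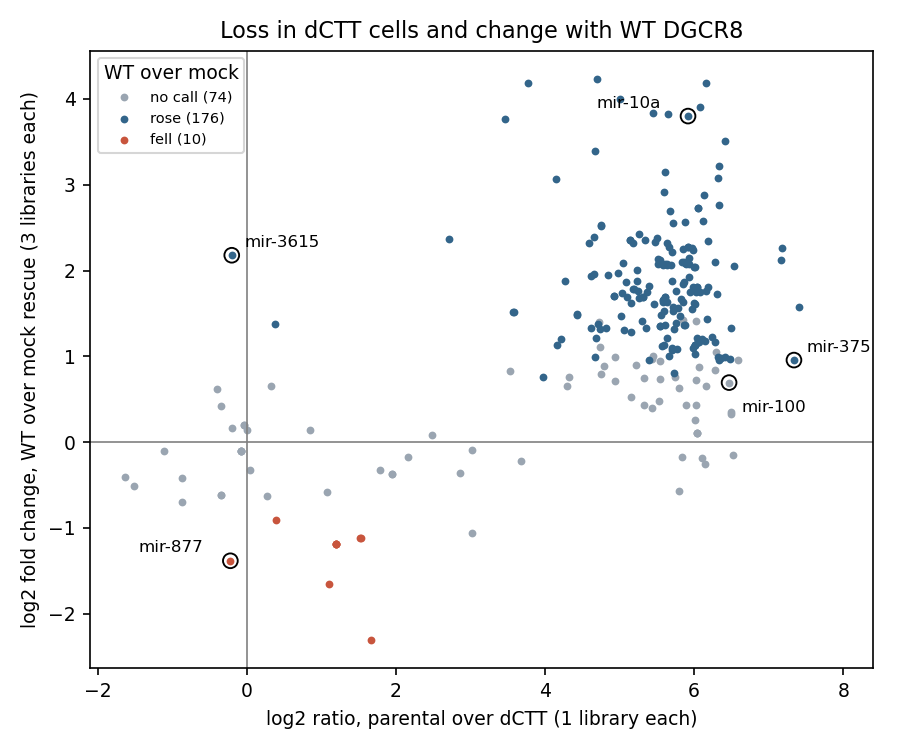
Each of the 260 tested hairpins by its log2 ratio of parental over dCTT cells (x axis, 1 library each) and its log2 fold change with WT DGCR8 over mock rescue (y axis, 3 libraries each), coloured by the limma call. The 176 hairpins that rose lie almost all to the right, mir-3615 rose from a kept level, mir-877 fell, and mir-100 had no call.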

How the data were processed

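The labels' protocols describe TRIzol extraction, selection of 17 to 30 nt RNA on a 15% gel and TruSeq small RNA libraries. Read trimming with cutadapt 1.14, Bowtie2 and the human build GRCh38 (hg38) are named in the submitters' processing notes. For both the read-to-hairpin rule and the library scaling, the method is "not given in the sources used here". Raw read counts as deposited fill the dCTT column and 1 mock column. The other columns hold signal deposited by the authors, namely counts times 1 factor per library. All rescue values (100%) were whole multiples of 1 step per library, within 0.001 of a read. Many hairpins that share a mature sequence hold nearly the same reads and are not independent. Some copies differ: mir-320c-1 and mir-320c-2 held 5398 and 1578 dCTT reads, and mir-378d-1 and mir-378d-2 held 46 and 181.

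Parental and dCTT cells have 1 library each, so ratios with 1 added and exact conditional binomial 95% intervals on reads were computed, with Python 3.11.15 and scipy 1.17.1, and no test. Floors and intervals cover counting error only. Rescue libraries were tested with limma 3.58.1 in R 4.3.3 (mean-variance trend, 2-sided, group only), all 15 in 1 fit, hairpins with a mean of 10 or more. The mock columns are numbered under another name than the mock samples, so their numbers could not be tied to the labelled replicates. The mock and WT libraries numbered 1 deviated together (r 0.63 across hairpins). Pairing by number was not shown for numbers 2 and 3 (r 0.30 and 0.15). There, WT 3 was closer to mock 2 (r 0.37), and mock 3 was closer to WT 2 (r 0.23). A replicate block by column number was also fitted. The pairing comes from the data and column names, not from the labels. Nothing in the labels says that replicates were cultured separately, and a p-value here reflects the spread of the sequenced libraries alone, which may be technical. No batch is labelled. The computations were tested on simulated data.

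Hairpins named were the 10 most abundant in parental cells, the 10 highest and 10 lowest ratios among hairpins at or above the median level, every hairpin not 2-fold lower, and members of the lists as examples. The members and lists were chosen with earlier results of these data known. Rescue hairpins were named after their values were seen. Alternatives were another pseudocount, 2 other scalings, centring on hairpins known to bypass Microprocessor, a dCTT read minimum, copies joined, no filter, only the 2 rescue groups, edgeR 4.0.16 on recovered reads, and each library left out. The host intron of 1 hairpin is not reported here.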

Additional observations from a re-analysis of the deposited data

How the results depend on the processing

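The median ratio of 5.54 was 5.55 when centred on the bypass list, 5.59 with at least 10 dCTT reads and 5.54 with copies joined. The bypass list already had a median of -0.10 on the authors' scale, so centring on it could move little and is no separate check of that scale. The median ratio of all hairpins was 4.52 with a pseudocount of 10, 1.13 with median centring and 1.38 at equal totals. Counts moved as follows. Hairpins at least 4-fold lower were 17 with median centring, 45 at equal totals and 149 with at least 10 dCTT reads, a setting that keeps fewer hairpins. Those at least 64-fold lower were 19 with a pseudocount of 10 and 0 with either other scaling. Those within 2-fold were 90 with median centring and 55 at equal totals, and those over 2-fold higher in dCTT cells 44 and 43. Named hairpins at least 4-fold lower, 20 on the authors' scale, were 7 and 10, and lists with such a median, 23 on that scale, were 0 and 2. The ratio of mir-4454, 2.48, turned to -1.93 with median centring and -1.79 at equal totals.

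In the rescue libraries, 47 listed hairpins rose and 64 fell at equal totals, 132 rose and 36 fell with median centring, and 60 rose and 50 fell with edgeR on recovered reads, which called 67 and 109 over all hairpins. Leaving out 1 library in turn gave 150 to 188 that rose and 9 to 14 that fell. Where an arm was left with 2 libraries, all groups shared 1 estimate of the spread. The change of mir-100 turned to -0.018 with median centring, -0.76 at equal totals and -0.51 with edgeR, of which only the value at equal totals passed the threshold (limma adjusted p = 0.041). That of mir-375 turned to -0.46 at equal totals and -0.40 with edgeR, and that of mir-484 to -0.075 at equal totals. The scalings differ in which hairpins they hold level, and the cause of the difference between them was not tested. With the column number as a replicate block, 180 listed hairpins rose and 11 fell, and mir-100 rose by 0.69 (limma adjusted p = 0.036). The block changed the call of no other of the 16 rescue hairpins recomputed one by one.

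Depth limits the dCTT side: 108 of 294 hairpins had under 10 reads there. The median width of the counting interval was 3.85 on the log2 scale with 1 to 9 reads (95 hairpins), 1.05 with 10 to 99 (96) and 0.29 with 100 or more (90).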
